A study of Mus musculus with 8 samples.

Results

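The genes described here make cholesterol and fatty acids: 30 mouse genes out of the 53465 in the deposited count table. They were taken by name, 17 enzymes from Hmgcs1 to Dhcr7 that turn acetyl-CoA into cholesterol, 4 genes that control the pathway or carry sterols (Insig1, Srebf1, Srebf2 and Stard4), and 9 that supply acetyl-CoA or build and modify fatty acids. All 30 had counts in every library and all 30 passed the filter on low counts.

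RNA was sequenced from Ba/F3, a mouse pro-B line of C3H background that is immortal in culture and depends on interleukin-3. The parental group (3 libraries, numbered 1, 2 and 3) has wild-type U2AF35, a splicing factor that reads the 3' end of introns. The transformed group (5 libraries, numbered 4 to 8) is the same line transformed with U2AF35 carrying the S34F change. Neither the vector, the culture medium nor whether a library is a separate culture or clone is given in the sources used here, and a p-value here reflects no more than the spread among the libraries, which may be technical. A gene count also cannot tell an introduced U2AF35 copy from the cell's own.

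Cells make cholesterol from acetyl-CoA through mevalonate, farnesyl diphosphate, squalene and lanosterol. Most of these enzymes, and those of fatty acid synthesis, are switched on by the SREBP transcription factors, encoded by Srebf1 and Srebf2. When sterols are plentiful, INSIG proteins hold the SREBP precursors in the endoplasmic reticulum. When sterols run low the precursors are cut in the Golgi and the freed part enters the nucleus, so the whole set tends to move together in many cell types.

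The libraries held between 36122062 (transformed 7) and 50305573 (parental 1) counts, and the smallest count of any of the 30 genes in any library was 185. Levels are given as CPM, counts scaled to a common library size with TMM factors. Transformed 7 and transformed 4 stood apart over all genes: among 17733 genes tested, transformed 7 was the lowest of the 8 libraries in 27.0% and the highest in 26.7%, and transformed 4 in 15.8% and 18.1%. Of 11 pro-B markers, 2 (Cd79a and Cd79b) reached 1 CPM in a library, while Pax5, Ebf1, Rag1, Rag2, Igll1 and Vpreb1, among others, were at or near 0. Hepatocyte and fibroblast markers reached 1 CPM in 0 of 6 genes each, and adipocyte markers in 1 of 6 (Plin1). In bulk RNA, fewer cells of a type and less RNA per cell cannot be told apart.

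With all 8 libraries, 0 of the 30 genes passed the test at an adjusted p of 0.05 in edgeR, against 3.01% of all genes tested (2.1% lower and 0.908% higher). At an unadjusted p under 0.05 there were 5 of 30 (16.7%), against 22.2% of all genes. DESeq2 called 2 (Tm7sf2 and Fads1, both lower in transformed cells), against 10.4% of all genes (5.64% lower and 4.79% higher). Limma-voom called 1 (Tm7sf2, lower), against 3.32% (2.42% lower and 0.902% higher). The log2 fold change of transformed over parental cells was negative in 23 and positive in 7, with a median of -0.13 beside 0.02 over all genes tested. These group values hide a large difference between single libraries, which the next paragraphs describe.

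**Figure D1:**
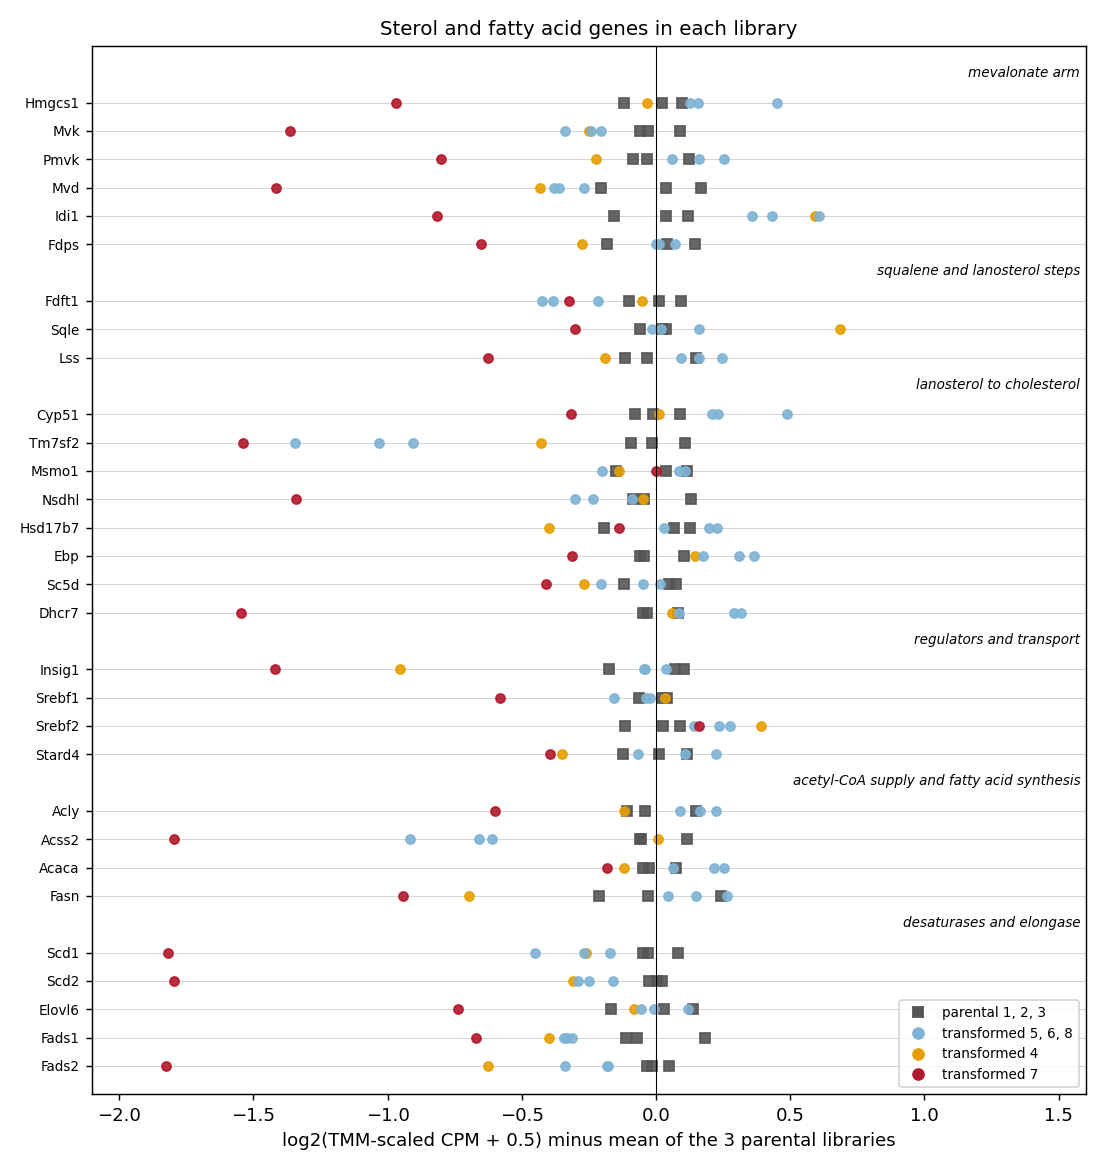
Level of each of the 30 genes in each library (horizontal axis, log2 of CPM + 0.5 minus the mean of the 3 parental libraries), grouped by role, with grey squares for parental libraries, blue circles for transformed 5, 6 and 8, orange for transformed 4 and red for transformed 7. Transformed 7 is the leftmost point in 26 of the 30 rows, and Tm7sf2 and Acss2 are also low in transformed 5, 6 and 8.

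Transformed 7 had the lowest level of the 8 libraries in 26 of the 30 genes. Over all genes tested it was the lowest in 27.0%, as given above. The median gene of the 30 was at -0.71 in transformed 7 on the log2 scale, relative to the parental mean. The same median was -0.16 in transformed 4, -0.01 in transformed 5, -0.0030 in transformed 6 and 0.09 in transformed 8, and it lay between -0.06 and 0.08 in the parental libraries. Over all genes tested the median lay between -0.01 and 0.0053 in each library. By role, the median in transformed 7 was -0.89 in the 6 genes of the mevalonate arm, -0.32 in the 3 from squalene to lanosterol and -0.36 in the 8 from lanosterol to cholesterol. It was -0.49 in the 4 regulators and carriers and -0.77 in the 4 genes of acetyl-CoA supply and fatty acid synthesis. The 5 desaturases and elongase were the furthest from the parental level, at -1.80. Of these, Scd1, Scd2, Fads1 and Fads2 lie on chromosome 19, whose 511 genes tested had a median of -0.36 in transformed 7. The 4 genes that were lowest elsewhere were Msmo1 and Fdft1 (transformed 5), Hsd17b7 (transformed 4) and Srebf2 (parental 3).

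Set against the mean of transformed 4, 5, 6 and 8, transformed 7 was lower in 29 of the 30 genes, with a median log2 difference of -0.69, while 50.5% of all genes tested were lower there, with a median of -0.0048. It was lower by more than 1 on the log2 scale in 11 of the 30, against 1.72% of all genes. This is a single library, so the difference has no replicate check and no test. Transformed 7 also had the fewest counts. It had the lowest level of Csf2rb, the common beta chain of the interleukin-3 receptor, at 825 CPM against 1490 to 3354 CPM in the other transformed libraries. The 5 marker genes for that receptor and for blood cells in general did not move together. Csf2rb2 was also lowest in transformed 7 (610 CPM). Il3ra (67.3 CPM) and Ptprc (501 CPM) were highest there of all 8 libraries, and Spn (219 CPM) was neither. The 6 macrophage markers summed to 413 CPM there, the top of a range that began at 56.5 CPM among transformed libraries and ran from 241 to 343 CPM among parental ones. Nearly all of that sum was Adgre1, while Marco and C1qa had 0 counts. The part of these in the result was not tested.

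**Figure D2:**
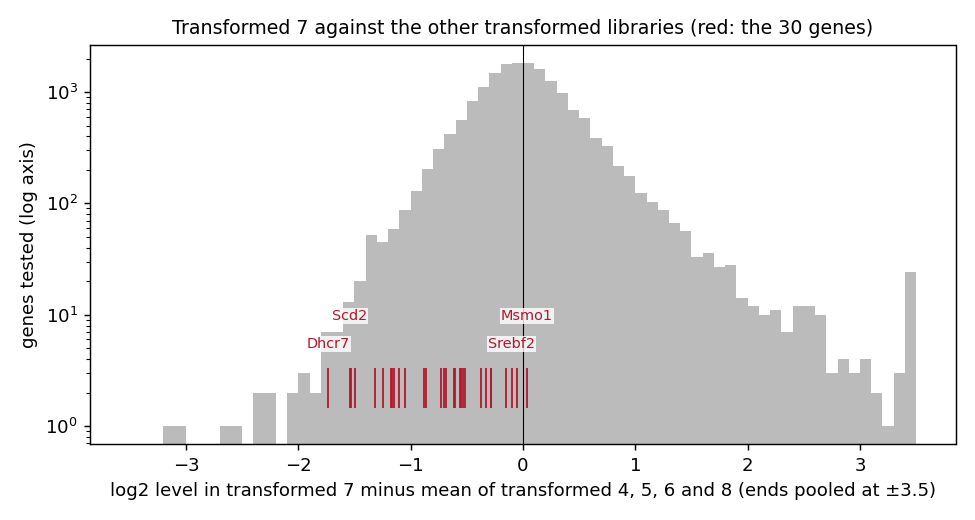
Histogram of the 17733 genes tested by their log2 level in transformed 7 minus the mean of the other 4 transformed libraries (horizontal axis, values beyond 3.5 pooled at the ends), with the number of genes on a log axis and the 30 sterol and fatty acid genes as red ticks. The ticks run from -1.74 for Dhcr7 to 0.04 for Msmo1, and the bulk of all genes centres on -0.0048.

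Dhcr7, which carries out the last step of cholesterol synthesis, showed the widest gap. Its level was 89.6, 97.0 and 88.4 CPM in parental 1, 2 and 3, and 95.4, 112, 97.3, 31.0 and 114 CPM in transformed 4 to 8. Transformed 7 was 70.4% below the mean of the other transformed libraries, which themselves stood at or above the parental level. The next widest gaps were in the stearoyl-CoA desaturases Scd1 and Scd2 (67.5% and 65.8% lower) and in the delta-6 desaturase Fads2 (64.9% lower). Idi1 (60.0%), Acss2 (59.9%), Insig1 (57.5%), Nsdhl (56.0%), Hmgcs1 (55.3%), Mvk (54.4%) and Mvd (52.3%) followed. At the other end, Srebf2 was 6.87% lower and Fdft1, squalene synthase, 4.20% lower.

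Promoters of 4 of the 11 genes with a log2 gap beyond -1 are shown, because textbook control of this pathway runs through short motifs close to the start site. Their gaps were among the smaller of the 11: -1.17 in Nsdhl, -1.15 in Hmgcs1, -1.10 in Mvk and -1.05 in Mvd. Dhcr7 (-1.74) and Fads2 (-1.49), among others with larger gaps, are not shown. These are the genes with a log2 gap beyond -1 and a single RefSeq start whose upstream window lies outside the annotated gene. Each line is the 250 bases before the RefSeq start (GRCm38.p6), written 5' to 3' on the gene's strand, with matches to TCACNCCAC (a sterol regulatory element, where SREBP binds) and CCAAT (bound by NF-Y, a partner of SREBP) in capitals, on either strand. The windows are chr13:119690101-119690350 (plus strand) for Hmgcs1, chr5:114444019-114444268 (plus) for Mvk, chr8:122443423-122443672 (minus) for Mvd and chrX:72918271-72918520 (plus) for Nsdhl.
Hmgcs1: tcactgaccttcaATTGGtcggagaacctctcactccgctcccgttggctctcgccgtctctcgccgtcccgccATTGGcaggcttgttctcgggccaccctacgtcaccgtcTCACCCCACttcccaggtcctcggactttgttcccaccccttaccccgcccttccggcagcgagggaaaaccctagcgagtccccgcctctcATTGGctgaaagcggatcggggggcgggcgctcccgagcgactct
Mvk: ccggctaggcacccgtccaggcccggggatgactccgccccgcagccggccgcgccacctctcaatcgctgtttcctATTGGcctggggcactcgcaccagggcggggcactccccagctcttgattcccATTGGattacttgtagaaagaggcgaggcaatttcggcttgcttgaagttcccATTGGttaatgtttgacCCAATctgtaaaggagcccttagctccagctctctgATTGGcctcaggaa
Mvd: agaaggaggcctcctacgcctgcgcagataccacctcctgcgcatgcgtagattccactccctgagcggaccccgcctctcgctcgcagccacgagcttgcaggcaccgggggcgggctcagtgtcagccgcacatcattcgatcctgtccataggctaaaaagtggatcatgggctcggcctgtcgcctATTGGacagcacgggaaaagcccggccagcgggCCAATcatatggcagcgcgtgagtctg
Nsdhl: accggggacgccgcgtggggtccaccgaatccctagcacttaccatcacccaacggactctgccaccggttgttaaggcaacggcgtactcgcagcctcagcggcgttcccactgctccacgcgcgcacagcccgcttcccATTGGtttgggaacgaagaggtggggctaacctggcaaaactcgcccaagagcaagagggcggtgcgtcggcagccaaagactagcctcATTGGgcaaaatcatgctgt
Hmgcs1 had 1 match to the sterol element and 3 to CCAAT, Mvk had 5 to CCAAT, and Mvd and Nsdhl had 2 each. RefSeq promoters were found for 23 of the 30 genes. CCAAT on either strand was present in 19 of these 23 (82.6%), against 37.5% of 27025 genes with windows of the same length. The 4 without it were Acly, Acaca, Elovl6 and Fads2. TCACNCCAC was present in Hmgcs1 alone (1 of 23, 4.35%, against 1.22%), and the E-box CACGTG in Hsd17b7, Sc5d, Dhcr7 and Insig1 (17.4%, against 6.86%). In the 4 printed windows no 2 matches overlapped. The windows were not matched for base composition, and a match is a description of letters, not of binding. Each motif was searched as a fixed pattern within 250 bases, so a missing match does not show that a gene lacks such an element.

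Among the enzymes that make isoprenoid units, Hmgcs1, which condenses acetyl units into HMG-CoA at the entry to the mevalonate pathway, was at 131, 138 and 119 CPM in parental 1 to 3 and at 126, 141, 144, 65.6 and 177 CPM in transformed 4 to 8. Transformed 7 was the lowest and transformed 8 the highest, so the group means were nearly equal (129 ± 9.64, SD, n = 3, and 131 ± 40.8, SD, n = 5; log2 fold change 0.01, SE 0.26, edgeR adjusted p = 0.982). Without transformed 7 the log2 fold change was 0.18. Idi1, the isomerase that yields the reactive isoprenoid unit, had the largest positive log2 fold change of the 30 (0.31, SE 0.28, edgeR adjusted p = 0.555). Its levels were 150.2, 142 and 124 CPM in parental 1 to 3, and 209, 177, 186, 78.3 and 211 CPM in transformed 4 to 8. In that gene 4 of 5 transformed libraries lay above all parental ones and transformed 7 lay below all of them. Without transformed 7, Idi1 passed as higher (log2 fold change 0.50, edgeR adjusted p = 0.0247), as did 2.87% of all genes.

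Mvk and Mvd, mevalonate kinase and the decarboxylase of the same arm, were lower in every transformed library than in every parental one. Mvd was at 77.2, 84.6 and 65.2 CPM in parental 1 to 3 and at 55.6, 58.4, 57.6, 27.9 and 62.5 CPM in transformed 4 to 8. The difference missed the threshold (log2 fold change -0.53, SE 0.23, edgeR adjusted p = 0.219). Mvk ran from 34.2 to 37.9 CPM in parental libraries and from 13.5 to 30.8 CPM in transformed ones (log2 fold change -0.43, SE 0.24, edgeR adjusted p = 0.321). Without transformed 7 the log2 fold changes were -0.37 for Mvd and -0.26 for Mvk. Both passed as lower once transformed 4 and 7 were left out together (edgeR adjusted p = 0.0207 for Mvd and 0.0289 for Mvk). That setting leaves out the libraries that stood apart over all genes, and it called 16.1% of all genes lower, against 2.1% with all 8 libraries. Pmvk and Fdps, the phosphomevalonate kinase and farnesyl diphosphate synthase, had overlapping groups and log2 fold changes of -0.07 and -0.15.

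**Figure D3:**
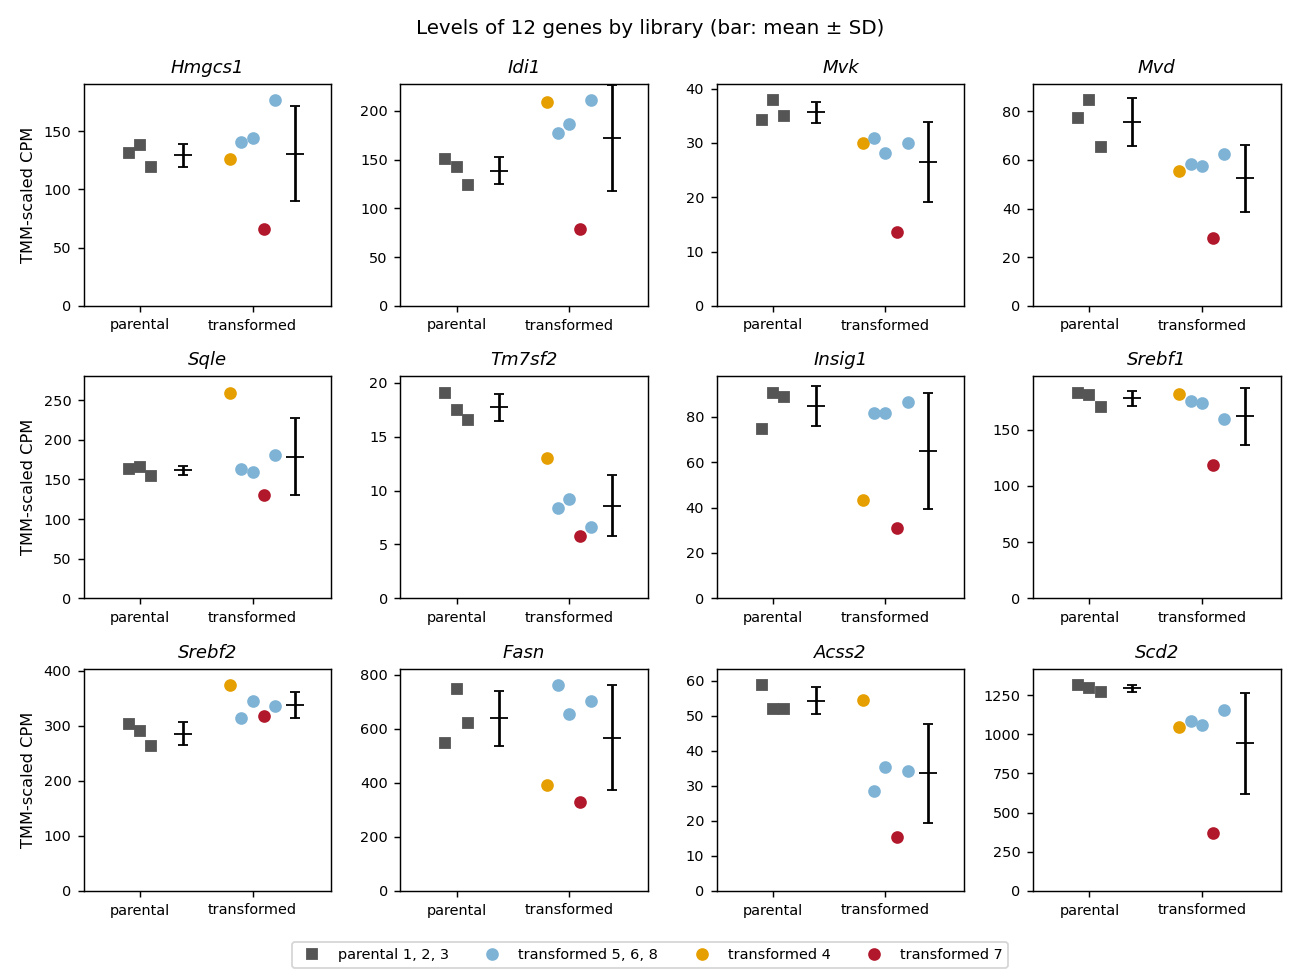
CPM (vertical axes, linear from 0) of 12 genes in the 3 parental libraries (grey squares) and the 5 transformed libraries (circles, orange for transformed 4 and red for transformed 7), and a black bar for the group mean ± SD. Transformed 7 is the lowest point for all but Srebf2, and transformed 4 is the highest for Sqle (259.5 CPM) and near transformed 7 for Insig1 (43.2 and 31.2 CPM).

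Of the enzymes from squalene to lanosterol, Fdft1 was lower in transformed 5 to 8 than in the parental libraries, while transformed 4 (59.2 CPM) lay among the parental values of 65.4, 61.8 and 57.1 CPM. Transformed 5 to 8 were at 45.6, 46.9, 48.9 and 52.7 CPM. Its log2 fold change was -0.28 (SE 0.11, edgeR adjusted p = 0.171), and it passed as lower without transformed 4 (edgeR adjusted p = 0.0341). In that setting 9.26% of all genes were called lower. Sqle, squalene monooxygenase, a control point of the sterol branch, went the other way in transformed 4. It was at 164, 166 and 155 CPM in parental 1 to 3 and at 259.5, 164, 159.6, 131 and 180.3 CPM in transformed 4 to 8. The log2 fold change of Sqle was 0.15 (SE 0.19, edgeR adjusted p = 0.701) and -0.03 without transformed 4. Lss, lanosterol synthase, had a log2 fold change of -0.04.

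In the 8 genes that turn lanosterol into cholesterol, the largest difference of all 30 genes was in Tm7sf2, a sterol C14 reductase. It was at 19.1, 17.5 and 16.6 CPM in parental 1 to 3 and at 13.0, 8.39, 9.22, 5.77 and 6.66 CPM in transformed 4 to 8. All 5 transformed libraries lay below all 3 parental ones, with transformed 4 the closest to them. The log2 fold change was -1.04 (SE 0.23), and the adjusted p of 0.0503 in edgeR just missed the threshold. Tm7sf2 passed as lower in 9 of 18 alternative settings, among them DESeq2 (adjusted p = 0.00119), without transformed 7 (edgeR adjusted p = 0.0323) and without transformed 4 (edgeR adjusted p = 0.00493). In the same order, these settings called 5.64%, 4.76% and 9.26% of all genes lower. The other 7 genes of this group had log2 fold changes from -0.34 in Nsdhl (-0.17 without transformed 7) to 0.15 in Ebp and Cyp51 (0.25 and 0.24 without it). Msmo1, the C4 methyl oxidase, was at 148, 156 and 129.9 CPM in parental 1 to 3 and at 131, 125, 153, 144 and 156 CPM in transformed 4 to 8, so that transformed 7 sat in the middle of the range.

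Insig1, which retains SREBP in the endoplasmic reticulum and is itself an SREBP target, split the transformed libraries. It was at 74.5, 90.7 and 88.6 CPM in parental 1 to 3 and at 43.2, 81.9, 81.8, 31.2 and 86.4 CPM in transformed 4 to 8. Transformed 4 and 7 lay below every parental library, and transformed 5, 6 and 8 among them (log2 fold change -0.38, SE 0.32, edgeR adjusted p = 0.525). The log2 fold change was -0.21 without transformed 7 and -0.02 without both. The ratio of Insig1 to its relative Insig2, scaled by exon length, was 1.12 in transformed 7 and 2.26 in transformed 4. In the other libraries it ran from 3.01 to 5.23, and Insig2 itself was highest in transformed 7, at 31.2 CPM.

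Srebf2, the regulator best known for sterol genes, was the 1 gene of the 30 that was higher in all 5 transformed libraries than in all 3 parental ones. Over all genes tested that share was 8.07%. It was at 303, 290.0 and 263 CPM in parental 1 to 3 and at 374, 314, 345, 318 and 335 CPM in transformed 4 to 8 (log2 fold change 0.24, SE 0.09, edgeR adjusted p = 0.164). Srebf1, the regulator best known for fatty acid genes, was at 183, 181 and 171 CPM in parental 1 to 3 and at 182, 175, 174, 119 and 159.9 CPM in transformed 4 to 8 (log2 fold change -0.14, SE 0.13, edgeR adjusted p = 0.588), and its log2 fold change without transformed 7 was -0.04. The length-scaled ratio of Srebf1 to Srebf2 was 0.77, 0.796 and 0.827 in parental 1 to 3. It was 0.621, 0.713, 0.642, 0.477 and 0.608 in transformed 4 to 8, so the groups did not overlap. Srebf2 alone already separated the groups while Srebf1 alone did not, and no background share for ratios is given. Stard4, which moves sterols between membranes, had a log2 fold change of -0.08, with its lowest values in transformed 7 (146 CPM) and transformed 4 (151 CPM).

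For acetyl-CoA supply, Acss2, which makes acetyl-CoA from acetate, was at 58.8, 52.1 and 52.1 CPM in parental 1 to 3. It was at 54.5 CPM in transformed 4 and at 28.5, 35.3, 15.3 and 34.1 CPM in transformed 5 to 8. Only transformed 4 of the 5 transformed libraries was at the parental level. The log2 fold change was -0.69 (SE 0.32, edgeR adjusted p = 0.241), and -0.94 without transformed 4, where Acss2 passed as lower (edgeR adjusted p = 0.0420). In that setting 9.26% of all genes were called lower. Acss2 lies on chromosome 2, where the 1349 genes tested were split in the same direction. Their median log2 level relative to the parental mean was 0.05 in transformed 4. It was -0.19, -0.21, -0.20 and -0.21 in transformed 5 to 8. The part of this in the level of Acss2 was not tested. Acly, which makes acetyl-CoA from citrate, had a log2 fold change of -0.02, with its lowest level in transformed 7 (290.0 CPM) and its highest in transformed 8 (513 CPM).

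Fasn, the fatty acid synthase, was at 547, 748 and 621 CPM in parental 1 to 3 and at 390.3, 762, 653, 329 and 702 CPM in transformed 4 to 8. Transformed 4 and 7 lay below every parental library, as they did for Insig1. Neither Fasn (log2 fold change -0.17, SE 0.28, edgeR adjusted p = 0.766) nor Acaca, the acetyl-CoA carboxylase (0.06, SE 0.12, edgeR adjusted p = 0.822), passed. Acaca ran from 127 to 139 CPM in parental libraries and was at 121, 153, 138, 116 and 157 CPM in transformed 4 to 8.

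The desaturases and the elongase had negative log2 fold changes in 5 of 5, with a median of -0.46. All but Elovl6 lie on chromosome 19, where the median over all genes tested was -0.34. Scd2, the desaturase with the highest level per kilobase, was at 1314, 1298 and 1269.9 CPM in parental 1 to 3 and at 1044, 1088, 1057, 372 and 1156 CPM in transformed 4 to 8, with no overlap between the groups (log2 fold change -0.46, SE 0.31, edgeR adjusted p = 0.422). Scd1 was at 21.1, 19.2 and 19.5 CPM in parental 1 to 3 and at 16.5, 17.6, 14.5, 5.28 and 16.5 CPM in transformed 4 to 8 (log2 fold change -0.50, SE 0.32, edgeR adjusted p = 0.393). Without transformed 7 the log2 fold changes were -0.25 for Scd2 and -0.29 for Scd1. The 2 desaturases kept nearly the same proportion: the length-scaled ratio of Scd1 to Scd2 was 0.0172 ± 6.85e-04 in parental (SD, n = 3) and 0.0166 ± 0.00124 in transformed libraries (SD, n = 5), and 0.0159 in transformed 7. Reads from shared stretches of these neighbouring paralogs may be split between them.

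Fads1, the delta-5 desaturase of polyunsaturated fatty acids, was at 446, 363 and 374 CPM in parental 1 to 3 and at 298, 310.0, 312, 247 and 316 CPM in transformed 4 to 8. All transformed libraries were lower than all parental ones (log2 fold change -0.41, SE 0.11, edgeR adjusted p = 0.0757). Fads1 passed as lower in 5 of 18 alternative settings, among them DESeq2 (adjusted p = 0.0208) and without transformed 7 (edgeR adjusted p = 0.0433). In the same order, these settings called 5.64% and 4.76% of all genes lower. Fads2 ran from 226 to 239 CPM in parental libraries and was at 149.8, 204, 183, 64.9 and 204 CPM in transformed 4 to 8 (log2 fold change -0.52, SE 0.31, edgeR adjusted p = 0.364), with a log2 fold change of -0.32 without transformed 7. Elovl6, which lengthens saturated chains, had overlapping groups and a log2 fold change of -0.13.

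**Figure D4:**
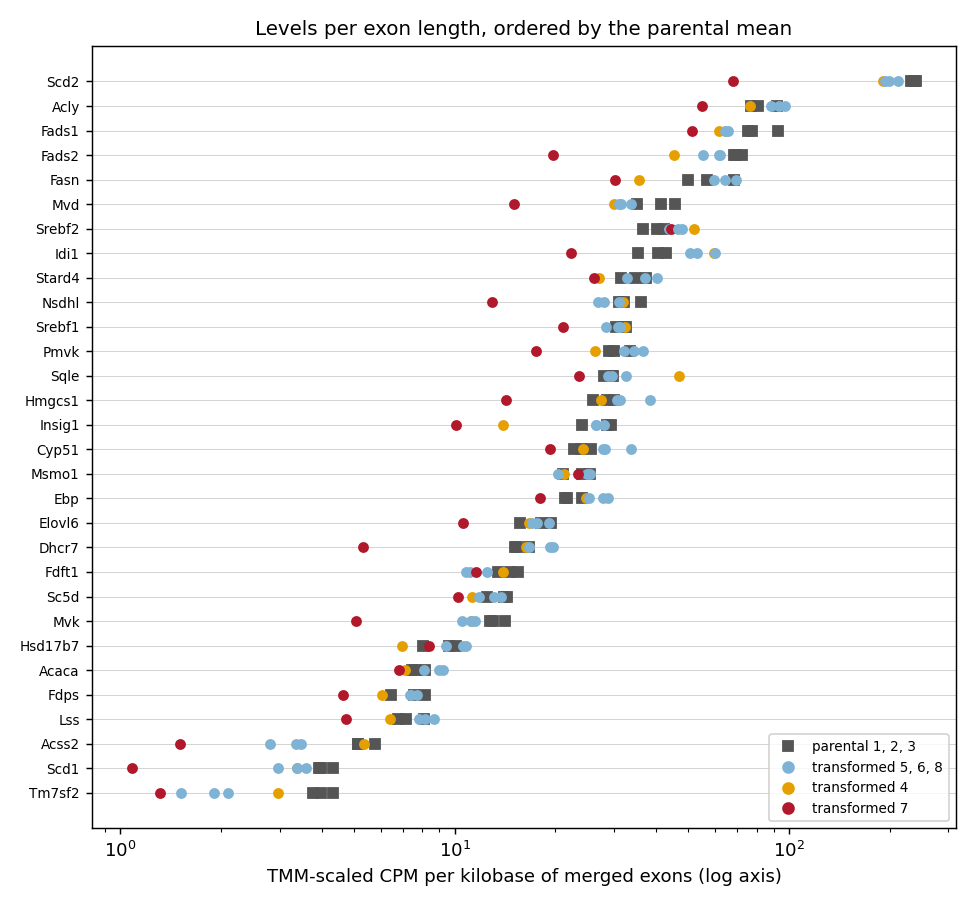
CPM per kilobase of merged exons (horizontal axis, log scale) of the 30 genes in each library, ordered by the parental mean, with grey squares for parental libraries, blue circles for transformed 5, 6 and 8, orange for transformed 4 and red for transformed 7. Scd2 stands at the top at 237 per kilobase in parental cells, and Scd1 and Tm7sf2 at the bottom at 4.08 and 4.03.

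Divided by exon length, levels in parental cells spanned from 237 CPM per kilobase in Scd2 to 4.08 in Scd1 and 4.03 in Tm7sf2. Acly (83.5 ± 7.90 CPM per kilobase, SD, n = 3) and Fads1 (82.0 ± 9.40, SD, n = 3) came next and did not differ beyond their spread. Fads2 stood at 70.3 ± 2.05 and Fasn at 58.4 ± 9.30 CPM per kilobase (SD, n = 3). Mvd, Srebf2 and Idi1 were close together at 40.7, 39.7 and 39.6, also within their spread. The merged exons include every annotated isoform, so long minor forms lower a gene's value.

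The 30 genes lie on 15 chromosomes, and 5 of them lie on chromosome 19 (GRCm38): Tm7sf2 (6062821 to 6068373), Fads2 (10062765 to 10101746), Fads1 (10182888 to 10196877), Scd2 (44293674 to 44306864) and Scd1 (44394455 to 44407879). In all 5 the groups did not overlap and the transformed libraries were lower. Genes of chromosome 19 were low as a whole: 43.1% of the 511 tested there had non-overlapping groups with transformed cells lower, against 9.69% of all genes tested. The median log2 fold change of chromosome 19 genes was -0.34. Relative to that median, Fads1 stood at -0.07, Scd2 at -0.12, Scd1 at -0.16, Fads2 at -0.18 and Tm7sf2 at -0.70. The distances of Scd2, Scd1 and Fads2 turned on transformed 7. Without it the chromosome 19 median was -0.33, and Scd2 (0.08), Scd1 (0.03) and Fads2 (0.0056) stood just above it. Fads1 was then at -0.02, and Tm7sf2 stayed well below at -0.60. Off chromosome 19, 2 of 25 genes (Mvk and Mvd) had non-overlapping lower groups, 8.0%, near the share over all genes.

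The chromosome 19 median was low in each transformed library: -0.26, -0.28, -0.31, -0.36 and -0.31 in transformed 4 to 8, on the log2 scale relative to the parental mean. The median of the 5 chromosome 19 genes described here was -0.40, -0.25, -0.34, -1.80 and -0.27 in the same libraries. The distance between these medians was thus small in transformed 4, 5, 6 and 8 and large in transformed 7. This does not hold for Tm7sf2 alone, which was the lowest of the 5 in transformed 5, 6 and 8, at -1.03, -0.91 and -1.35. The other 25 genes had a median of -0.62 in transformed 7. Those 25 genes had a median log2 fold change of -0.07 between the groups. What sets the level of chromosome 19 genes was not tested.

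**Figure D5:**
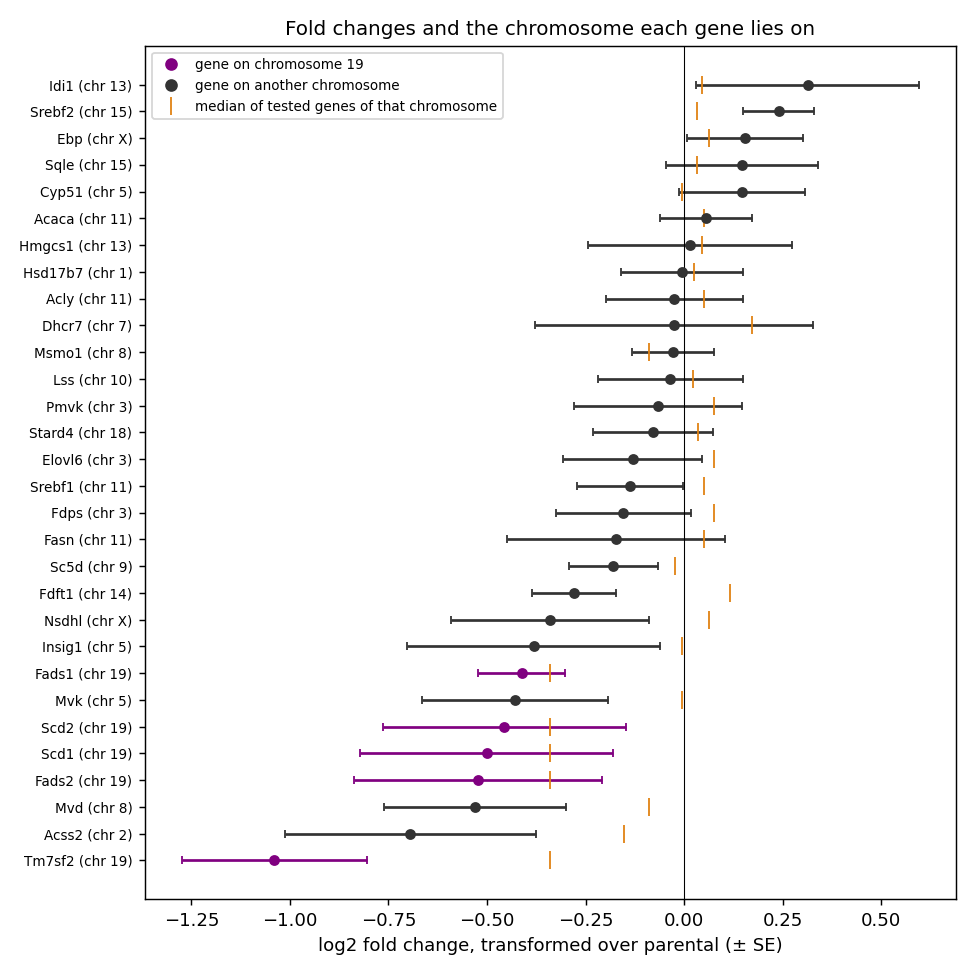
Log2 fold change of transformed over parental cells (horizontal axis) with its standard error for the 30 genes, ordered by value, with genes on chromosome 19 in purple and the median of all tested genes of each gene's own chromosome as an orange tick. Fads1, Scd2, Scd1 and Fads2 lie with their standard errors across the chromosome 19 median of -0.34, and Tm7sf2 lies at -1.04.

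The sequencing lane gives 2 sets of 4 libraries. Transformed 4 and 7 are both in lane 7, so a fit on 1 lane cannot tell lane from those 2 libraries. Lane 7 also holds parental 2 and transformed 6, where the median of the 30 relative to the parental mean was 0.08 and -0.0030. It was -0.16 in transformed 4 and -0.71 in transformed 7. The same median in lane 6 was 0.02 and -0.06 in parental 1 and 3, and -0.01 and 0.09 in transformed 5 and 8. In lane 6 (parental 1 and 3, transformed 5 and 8), edgeR called 11 of the 30 genes, against 20.4% of all genes. It called 3 lower (Acss2, Fads1 and Tm7sf2), against 10.8% of all genes. It called 8 higher (Acaca, Acly, Cyp51, Dhcr7, Ebp, Fasn, Idi1 and Lss), against 9.60% of all genes. The median log2 fold change there was 0.12. In lane 7 (parental 2, transformed 4, 6 and 7), with a lone parental library assumed to vary like the others, 0 of the 30 passed in edgeR, 0 at an unadjusted p under 0.05, and 0.0% of all genes passed. There the median was -0.36. With lane as a covariate edgeR called 0 of the 30, with 3 at an unadjusted p under 0.05, against 0.53% of all genes called (0.445% lower and 0.0846% higher).

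Without transformed 7, edgeR called 3 of the 30, against 7.62% of all genes: Tm7sf2 and Fads1 lower (4.76% of all genes) and Idi1 higher (2.87%). Tm7sf2 and Fads1 lie on chromosome 19, where 32.2% of genes tested were called lower in that setting. The median of the 30 was then -0.03. The log2 fold change of Dhcr7 was then 0.19, that of Acss2 -0.51, that of Fasn -0.03 and that of Acaca 0.11, none past the threshold. Without transformed 4, it called 4 lower (Acss2, Fads1, Fdft1 and Tm7sf2, against 9.26%) and 0 higher (against 6.25%). Without both, it called 9 of the 30 lower, namely those 4 with Fads2, Mvd, Mvk, Scd1 and Scd2, against 16.1% of all genes. It called 4 higher (Cyp51, Dhcr7, Ebp and Idi1), against 12.8%, and the median was 0.02. Of the 9 lower genes, 5 lie on chromosome 19, where 51.8% of genes tested were called lower in that setting.

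The wider lipid genes were counted from a list of 46 that holds none of the 30, of which 44 passed the filter on low counts. EdgeR called 0 of the 44, against 3.01% of all genes. At an unadjusted p under 0.05 there were 12 (27.3%, against 22.2% of all genes), with 22 positive and 22 negative log2 fold changes and a median of -0.0030, and DESeq2 called 4 lower and 2 higher, against 5.64% and 4.79% of all genes. The smallest p-values were those of Mbtps2, the site-2 protease that frees SREBP (45.5, 48.1 and 44.2 CPM in parental 1 to 3, and 59.1, 56.0, 59.4, 70.9 and 59.7 CPM in transformed 4 to 8; log2 fold change 0.41, SE 0.10, edgeR adjusted p = 0.0583), then of Lipa and Osbp. All 5 transformed libraries had more Mbtps2 than any parental one, with transformed 7 the highest. Lipa, the lysosomal acid lipase, and Osbp, an oxysterol-binding protein, both on chromosome 19, had log2 fold changes of -0.47 and -0.30 (edgeR adjusted p = 0.0609 and 0.0776).

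These wider genes were not low together in transformed 7. Their median there was -0.07, and transformed 7 was the lowest library in 15 of the 44 and the highest in 14. Among the 44, the lowest levels relative to the other transformed libraries were those of Acat2 and Slc25a1, and the highest those of Soat1 and Hacd3, 4 genes picked after their values were seen. Acat2, which joins 2 acetyl-CoA units at the head of the mevalonate pathway, was at 97.7, 111 and 95.7 CPM in parental 1 to 3 and at 92.3, 87.0, 84.7, 34.3 and 93.0 CPM in transformed 4 to 8. Slc25a1, the mitochondrial citrate carrier, was at 70.3 CPM in transformed 7 and between 117 and 203 CPM in the other libraries. Soat1, which stores cholesterol as esters, was at 42.5 CPM in transformed 7 and between 16.0 and 31.1 CPM elsewhere. Hacd3, a dehydratase of chain elongation, was at 263 CPM in transformed 7 and between 136 and 165 CPM elsewhere. The 8 other genes of SREBP control on the list had a median of 0.21 in transformed 7, opposite in sign to that of the 30. The median was also positive in the 8 other isoprenoid and sterol enzymes (0.26). It was negative, like that of the 30, in the 18 other genes of fatty acid and lipid synthesis (-0.18). The same held for the 10 genes of sterol efflux, storage and lysosomal export (-0.15).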

How the data were processed

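PolyA RNA from 3 parental and 5 transformed Ba/F3 libraries was counted per Ensembl gene. The deposited table holds raw read counts, not normalised; per the submitters' processing notes STAR 2.5.3a, featureCounts 1.5.3, mm10 and GRCm38.p5 were used. The sources used here do not give the strand setting, the handling of multi-mapped reads or the annotation release, so counts of paralogs and overlapping genes are uncertain. The table had 0 columns outside the 8 libraries. Symbols, positions and exon lengths came from GENCODE M21 (GRCm38), where 105 ids had no match (0.0212% of counts), and promoters from RefSeq (GRCm38.p6).

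The members and lists were chosen with earlier results of these data known. The 2 groups were compared with edgeR 4.0.16 in R 4.3.3: genes kept by filterByExpr, TMM scaling, and the 2-sided quasi-likelihood F test in its robust form, fitted on 17733 genes, with p-values adjusted over all of them (Benjamini-Hochberg) and called at 0.05. The SE is the log2 fold change divided by the square root of F. Alternatives were DESeq2 1.42.0, limma-voom (limma 3.58.1), RLE or upper-quartile factors, other filters, lane and left-out libraries. Values in every library are given for called genes, the 6 smallest p, fixed control points and the extreme fold changes, and some others chosen after their values were seen. Tested on simulated data of 17733 genes with the same 3 and 5 libraries, the fit found 7.46% of 67 genes set to 1.5-fold, 67.2% of 67 set to 2-fold and 93.9% of 66 set to 4-fold. Of 122 calls, 10 were false.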

Additional observations from a re-analysis of the deposited data

Results flagged for a closer look

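Within the 5 transformed libraries, the gap between the most extreme library and its nearest neighbour was compared with the whole range of the group, and gaps above 0.71 of the range are listed; chance alone gives about 1 such group in 20. Of the 30 genes, 8 were listed, in each case with transformed 7 as the lowest library. Over all genes tested, 15.0% had such a gap at either end and in any library, and 2.18% had it with transformed 7 as the lowest. The gap was 0.857 of the range in Scd2, 0.839 in Mvk, 0.8004 in Mvd, 0.774 in Dhcr7, 0.748 in Idi1, 0.744 in Scd1, 0.740 in Fads1 and 0.730 in Nsdhl. The genes share a library, so these are not independent. Among the 3 wider lipid genes named for their p-values, Mbtps2 was listed with transformed 7 as the highest library, at 0.752 of the range; 5.83% of all genes tested had such a gap with transformed 7 as the highest.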

How the results depend on the processing

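No paired analysis was possible because the groups share no replicate numbers. Of the 30 genes, 1 was called lower (Tm7sf2) with limma-voom, with RLE factors, without the low-count filter and with a filter at CPM 1 in 3 libraries, and 2 in DESeq2. For RLE factors and the changed filters no share of all genes is given here, so that call has no reference. Lane 6 alone gave 3 lower and 8 higher, and leaving out transformed 4 and 7 gave 9 and 4. With 1 library left out at a time the counts ran from 0 to 4 lower and from 0 to 1 higher. Upper-quartile factors, lane 7 alone and lane as a covariate gave 0. Over all genes, 372 were lower and 161 higher. DESeq2 gave 1001 and 850, lane as a covariate 79 and 15, lane 6 alone 1883 and 1682, lane 7 alone 0 and 0 (507 at an unadjusted p under 0.05), and leaving out transformed 4 and 7 gave 2804 and 2238. Leave-one-out values ran from 21 to 1628 lower and from 3 to 1100 higher, the highest without transformed 4. Wider lipid genes, of which 44 were tested with all 8 libraries, had 4 lower and 2 higher in DESeq2 (5.64% and 4.79% of all genes). Lane 6 alone gave 3 and 6 of them (10.8% and 9.6% of all genes). Leaving out transformed 4 and 7 gave 7 and 7 (16.1% and 12.8%). With 1 library left out there were 0 to 6 lower and 0 to 3 higher. The median of the 30 ran from -0.18 to -0.03 with 1 library left out, and was -0.15 relative to each gene's chromosome. Transformed 7 was the lowest in 26 of the 30 under RLE, upper-quartile and no factors, a check added after seeing the data. Groups that did not overlap numbered 7 to 10 lower and 1 to 3 higher leaving out 1 library, and 10 lower and 6 higher without transformed 4 and 7, also added later. Over all genes these shares ran from 10.4% to 17.8% lower and from 8.9% to 14.5% higher leaving out 1 library, and were 23.6% and 20.9% without both, against 9.69% and 8.07% with all 8 libraries, so non-overlap was commoner among all genes too. Without length scaling, Scd1 to Scd2 was 0.0154 (parental) and 0.0148 (transformed), and Srebf1 to Srebf2 0.626 and 0.4802.

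Lane 6 alone also leaves out transformed 4 and 7, so it and the fit without them are not separate checks. Some log2 fold changes took the other sign, among them Insig1 (-0.38 with all libraries), and the cause was not tested. In lane 6 alone they were 0.20 for Pmvk, 0.12 for Fdps, 0.29 for Lss, 0.029 for Msmo1, 0.21 for Hsd17b7, 0.032 for Sc5d, 0.36 for Dhcr7, 0.060 for Insig1, 0.16 for Stard4, 0.28 for Acly, 0.34 for Fasn and 0.14 for Elovl6. In lane 7 alone they were -0.31 for Hmgcs1, -0.11 for Cyp51, -0.089 for Ebp and -0.16 for Acaca. Without transformed 4 and 7 they were 0.16 for Pmvk, 0.021 for Fdps, 0.16 for Lss, 0.15 for Hsd17b7, 0.24 for Dhcr7, 0.090 for Stard4, 0.15 for Acly, 0.14 for Fasn and 0.015 for Elovl6. Hmgcs1 was at -0.048 in limma-voom, and Hsd17b7 at 0.0021 in DESeq2 and with RLE factors. With lane as a covariate Hsd17b7 was at 0.010, Dhcr7 at 0.024 and Acly at 0.0022. Leaving out 1 library, the range was -0.12 to 0.18 for Hmgcs1, -0.16 to 0.071 for Pmvk, -0.026 to 0.24 for Sqle, -0.11 to 0.082 for Lss, -0.095 to 0.038 for Msmo1, -0.089 to 0.080 for Hsd17b7, -0.13 to 0.19 for Dhcr7 and -0.091 to 0.091 for Acly. Relative to the chromosome 19 median, a check added later, Scd1, Scd2 and Fads2 were at 0.034, 0.075 and 0.0056 without transformed 7, at -0.21, -0.14 and -0.15 without transformed 4, and at 0.031, 0.099 and 0.0998 without 4 and 7. Simulated 1.5-fold changes were mostly missed, so a gene that misses the threshold is not shown to be equal.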
